A study of Mus musculus with 6 samples.

Results

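The 10 genes described here are the transcription factor genes Snai1, Snai2, Zeb1, Zeb2, Twist1 and Twist2, the cadherin genes Cdh1 and Cdh2, the epithelial adhesion gene Epcam and the filament gene Vim, out of 19938 genes measured with a single annotated symbol. They were followed in AML-12 cells, a mouse hepatocyte line, on Affymetrix Mouse Gene 1.0 ST arrays. In the siMnSOD group (3 arrays) the cells carried a retrovirally delivered hairpin that targets MnSOD, the manganese superoxide dismutase encoded by Sod2 and the enzyme that removes superoxide in mitochondria, and in the siScramble group (3 arrays) they carried a scrambled hairpin that recognises no gene. Both groups were infected with the same type of vector, selected with puromycin and grown in the same medium without further treatment, and the hairpin was meant to silence MnSOD only mildly. The titles name 3 biological replicates per group and the design text speaks of batches of frozen cells, but nothing states that each array had an infection of its own, so all spreads are spreads between these arrays. Each of the 10 genes had 1 probe set, and its deposited intensity was taken on the log2 scale. The genes were picked with the siMnSOD against siScramble difference already known, so their own differences are given as a description without a test.

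Epithelial cells hold together through E-cadherin, the product of Cdh1, and through tight junctions and desmosomes, and they carry keratin filaments. In the epithelial-mesenchymal transition, which occurs in development, wound repair and tumour spread, cells lose these contacts and take on N-cadherin (Cdh2) and vimentin (Vim). The zinc finger proteins of the Snail family (Snai1, and Snai2, also called Slug) and of the Zeb family (Zeb1, Zeb2) and the helix-loop-helix proteins Twist1 and Twist2 drive the transition, in large part by binding E-box sequences in epithelial genes and repressing them. Hepatocytes differ from most epithelia in that they use E-cadherin and N-cadherin side by side. Epcam marks bile duct and progenitor cells of the liver rather than mature hepatocytes.

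Sequences of 2 kinds link these factors to each other and to their targets, and both are shown to make the circuit visible. The first is the E-box CACCTG, whose reverse complement is CAGGTG, a core bound by Snail and Zeb proteins. It was searched on both strands in the 250 bases before the annotated starts of the genes in RefSeq (GRCm38.p6), where windows for 6 of the 10 genes were used, 9 windows in all because Zeb2 has 4 starts. Windows of Snai2, Zeb1, Cdh1 and Cdh2 were not among them, so these genes were not searched. The windows of Zeb2 starts 2 and 3 largely overlap. Of 32851 such windows over all genes 17.2% held the motif, and 2 of the 9 did, those of Epcam and Snai1. The Epcam window (chr17:87635729-87635978, plus strand) held it with its first base 187 and 19 bases before the start, and the Snai1 window (chr2:167537945-167538194, plus strand) 126 bases before the start. The windows of Vim (chr2:13574061-13574310, plus strand) and of the first Zeb2 start (chr2:45117443-45117692, minus strand) are shown as examples whose genes differed on every array, and these letters did not occur in them. The Twist1 window, also without the motif, is not shown, although Twist1 was higher on every siMnSOD array by a narrow margin. Capitals mark the motif, and a match is a description of the sequence, not evidence of binding.
Epcam promoter: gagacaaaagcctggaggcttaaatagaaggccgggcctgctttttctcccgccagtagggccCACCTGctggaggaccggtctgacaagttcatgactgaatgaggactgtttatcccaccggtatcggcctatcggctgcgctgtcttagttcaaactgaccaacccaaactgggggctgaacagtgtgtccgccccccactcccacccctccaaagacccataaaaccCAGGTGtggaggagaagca
Snai1 promoter: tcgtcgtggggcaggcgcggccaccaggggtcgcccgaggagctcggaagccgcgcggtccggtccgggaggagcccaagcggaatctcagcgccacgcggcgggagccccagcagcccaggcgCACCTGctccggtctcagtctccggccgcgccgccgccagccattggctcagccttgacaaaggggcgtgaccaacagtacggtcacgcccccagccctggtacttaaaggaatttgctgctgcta
Vim promoter: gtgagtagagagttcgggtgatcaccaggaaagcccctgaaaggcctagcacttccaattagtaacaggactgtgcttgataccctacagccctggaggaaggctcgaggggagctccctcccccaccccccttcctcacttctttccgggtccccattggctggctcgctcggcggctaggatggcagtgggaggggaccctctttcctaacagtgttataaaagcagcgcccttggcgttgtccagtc
Zeb2 promoter: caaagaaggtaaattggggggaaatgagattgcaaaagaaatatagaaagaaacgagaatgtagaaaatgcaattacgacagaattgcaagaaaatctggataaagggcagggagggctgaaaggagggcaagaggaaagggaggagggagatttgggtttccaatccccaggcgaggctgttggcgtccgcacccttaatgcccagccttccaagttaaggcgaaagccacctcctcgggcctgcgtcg

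The second is the microRNA-200 family, which represses Zeb1 and Zeb2 and is itself repressed by them. Its members fall into 2 groups by seed, bases 2 to 8, which are in capitals in the mature RefSeq sequences. The seeds of the groups differ at 1 base.
mmu-miR-200b-3p: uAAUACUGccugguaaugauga
mmu-miR-200c-3p: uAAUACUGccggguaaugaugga
mmu-miR-429-3p: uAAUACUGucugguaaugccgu
mmu-miR-200a-3p: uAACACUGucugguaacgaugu
mmu-miR-141-3p: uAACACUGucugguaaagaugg
The arrays held probe sets named for 4 of the 5 precursors, which were looked up after the other results were known. Mir200b, Mir200c and Mir141 lay under the background guide on all 6 arrays. This guide, 4.28 on the log2 scale, is the 95th percentile of the mean levels of 1015 olfactory receptor genes, which served here as a guide to background only. Mir200a read 4.18, 4.21 and 4.91 in siMnSOD replicates 1, 2 and 3 and 4.06, 4.21 and 4.79 in siScramble replicates 1, 2 and 3. It passed the guide only in replicate 3, in both groups. Mature microRNAs were not measured.

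Sod2, the target of the hairpin, read 6.63, 6.92 and 5.71 in the siMnSOD arrays and 7.95, 7.99 and 8.20 in the siScramble arrays, so the groups did not overlap. Its log2 difference was −1.63 (SE 0.30). Over the whole table limma gave it an adjusted p of 0.037, beside an exact two-sided permutation p of 0.1, the smallest that 3 against 3 arrays allow. The limma call was lost without siMnSOD replicate 1 or 2 or siScramble replicate 1 or 2 (highest adjusted p 0.133). Replicate 3 stood apart in both groups: it correlated with its own group's other arrays at 0.9886 and 0.9891 in siMnSOD and at 0.9782 and 0.9792 in siScramble, against 0.996 and 0.9973 between replicates 1 and 2. Of the markers of mature hepatocytes, Alb, Ttr, Asgr1 and Ahsg (albumin, transthyretin, a glycoprotein receptor subunit and fetuin) lay under the guide on all 6 arrays, while Apob, Trf, Hnf4a, Apoa1 and Fgb lay above it on all 6, the last pair by a small margin. Hnf4a, which encodes a nuclear receptor of hepatocytes, was the 1 gene called of the 10 markers. It read 9.05, 9.18 and 8.85 in siMnSOD and 8.07, 8.01 and 7.72 in siScramble (1.09, SE 0.14, limma adjusted p 0.013, but up to 0.080 without siMnSOD replicate 1 or 2 or siScramble replicate 2), and its part in the results below was not tested. The bile duct keratin genes Krt19 and Krt7 were above it on all 6 arrays too, so the label of a hepatocyte line held for part of the hepatocyte markers only. The summed intensity of 12 fibroblast and stellate cell markers ranged over 265 to 334 in siMnSOD and 274 to 326 in siScramble, with 5 of the 12, Pdgfrb, Lrat, Dcn and Lum among them, under the guide on every array.

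Across the 10 genes, the siMnSOD cells had less Snai2, Zeb1 and Zeb2 RNA and more Vim RNA on every array, while Snai1, Twist2, Cdh1, Cdh2 and Epcam overlapped between the groups. Twist1 was also higher on every siMnSOD array, but by a narrow margin (5.00 against 4.98 at the closest). Snai2 differed most, at 15.6% of the siScramble level as a ratio of geometric means, followed by Zeb2 at 61.9% and Zeb1 at 63.8%. In the limma fit over all genes 3 of the 10 passed an adjusted p of 0.05 as lower, where 1.58% of all genes did, and no member passed as higher, where 2.17% of all genes did (1 member, Vim, had an unadjusted p under 0.05 as higher, and 3 as lower). All siMnSOD arrays lay under all siScramble arrays for 3 members, against 9.73% of all genes, and above them for 2 members, against 11.1%, or 5 in either direction, against 20.9%. A fit blocked on replicate number again called 3 members lower, where 3.12% of all genes were, with 4.02% of all genes called higher. The median difference was −0.07 over the 10 genes and 0.01 over all genes. Because the genes were chosen on this contrast, nothing is read from these shares. Leaving out siMnSOD replicate 1 or 2 or siScramble replicate 1 or 2 brought the count called lower to 0, with 3 members still at an unadjusted p under 0.05, and leaving out either replicate 3 left it at 3.

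**Figure D1:**
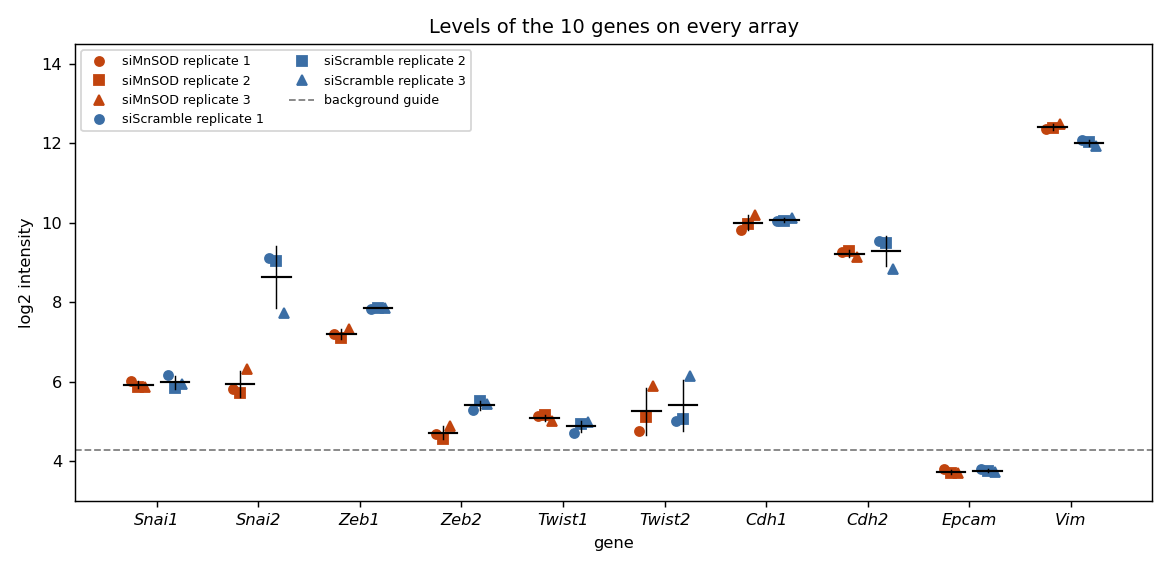
Log2 intensity (vertical axis) of the 10 genes (horizontal axis) on each siMnSOD array (orange, left of each pair) and each siScramble array (blue, right), with circles, squares and triangles for replicates 1, 2 and 3, black bars for group means, thin lines for ± 1 SD (n = 3) and a dashed line for the background guide of 4.28. Snai2, Zeb1 and Zeb2 separate downwards in siMnSOD, Vim upwards, Twist1 upwards by a narrow margin, and Epcam stays under the guide.

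Among the Snail genes, Snai2 read 5.82, 5.70 and 6.31 in siMnSOD replicates 1, 2 and 3 and 9.11, 9.04 and 7.73 in siScramble replicates 1, 2 and 3. Every siMnSOD array was lower than every siScramble array, and siScramble replicate 3 was the lowest of its group. The log2 difference was −2.68 (SE 0.38), a 6.42-fold lower level. Within replicate numbers it was −3.30, −3.33 and −1.42 for numbers 1, 2 and 3, so that the siMnSOD cells held 10.2%, 9.93% and 37.3% of the Snai2 level of the same-numbered siScramble cells. With replicates 1 and 2 alone the difference was −3.31. On the linear scale Snai2 fell to 52.1 to 79.2 intensity units in siMnSOD, against 212 to 553 in siScramble.

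Snai1, the other family member with a known role in the transition, overlapped between the groups. It read 6.03, 5.87 and 5.86 in the siMnSOD arrays and 6.16, 5.84 and 5.95 in the siScramble arrays. The difference of −0.06 (SE 0.12) was smaller than the SD between siScramble arrays of 0.16. Snai1 lay above the background guide on all 6 arrays.

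Zeb1 read 7.19, 7.09 and 7.33 in siMnSOD and 7.84, 7.86 and 7.86 in siScramble. The siScramble arrays agreed to within an SD of 0.011, and all 3 siMnSOD arrays lay below them, with a difference of −0.65 (SE 0.11). It was −0.65, −0.77 and −0.53 within replicate numbers 1, 2 and 3. Unlike Snai2, Zeb1 in siScramble replicate 3 did not stand apart from replicates 1 and 2.

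Zeb2 read 4.69, 4.56 and 4.89 in siMnSOD and 5.28, 5.51 and 5.42 in siScramble. The groups did not overlap, the difference was −0.69 (SE 0.13), and it was −0.59, −0.95 and −0.54 within replicate numbers 1, 2 and 3. The siMnSOD mean of 4.71 lay just above the background guide of 4.28, and adding 16 intensity units before the logarithm reduced the difference to −0.47. Of the 3 members called, Zeb2 alone missed the limma threshold when the prior followed intensity (adjusted p 0.062).

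The Twist genes read between 4.71 and 6.14, not far above the background guide, in both groups. Twist1 read 5.13, 5.15 and 5.00 in siMnSOD and 4.71, 4.94 and 4.98 in siScramble. The siMnSOD arrays lay above the siScramble arrays by a narrow margin, 5.00 against 4.98 at the closest, with a difference of 0.22 (SE 0.12) that shrank to 0.02 within replicate number 3. Twist2 read 4.75, 5.12 and 5.90 in siMnSOD and 5.01, 5.05 and 6.14 in siScramble, so it was highest in replicate 3 of both groups. Its difference of −0.14 (SE 0.39) was far smaller than the SDs of 0.59 in siMnSOD and 0.64 in siScramble.

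Cdh1, which encodes E-cadherin and is a well known target of Snail and Zeb repression, read 9.83, 9.97 and 10.20 in siMnSOD and 10.05, 10.04 and 10.12 in siScramble. The groups overlapped, with a difference of −0.07 (SE 0.12). It was −0.22, −0.08 and 0.08 within replicate numbers 1, 2 and 3, so no common direction was seen. On the arrays on which Snai2, Zeb1 and Zeb2 were lower, Cdh1 differed by less than its SD of 0.19 between siMnSOD arrays.

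Cdh2, which encodes N-cadherin, read 9.25, 9.29 and 9.13 in siMnSOD and 9.54, 9.48 and 8.84 in siScramble. siScramble replicate 3 was the lowest of all arrays and siScramble replicates 1 and 2 the highest, so the siMnSOD values lay inside the siScramble range. The difference was −0.06 (SE 0.20) over all arrays and −0.24 with replicates 1 and 2 alone, and it turned from −0.28 and −0.19 within numbers 1 and 2 to 0.29 within number 3.

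Epcam read 3.79, 3.70 and 3.71 in siMnSOD and 3.79, 3.76 and 3.72 in siScramble. All 6 values lay under the background guide, where a difference could not be seen. No level of Epcam is therefore given for these cells in either group.

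Vim read 12.36, 12.39 and 12.49 in siMnSOD and 12.08, 12.03 and 11.93 in siScramble. Vimentin is the filament protein of mesenchymal cells and of many cultured cells. Every siMnSOD array was above every siScramble array, with a difference of 0.40 (SE 0.10), or 132% of the siScramble level, and 0.28, 0.36 and 0.56 within replicate numbers 1, 2 and 3. Vim was higher on the same arrays on which Snai2, Zeb1 and Zeb2 were lower.

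**Figure D2:**
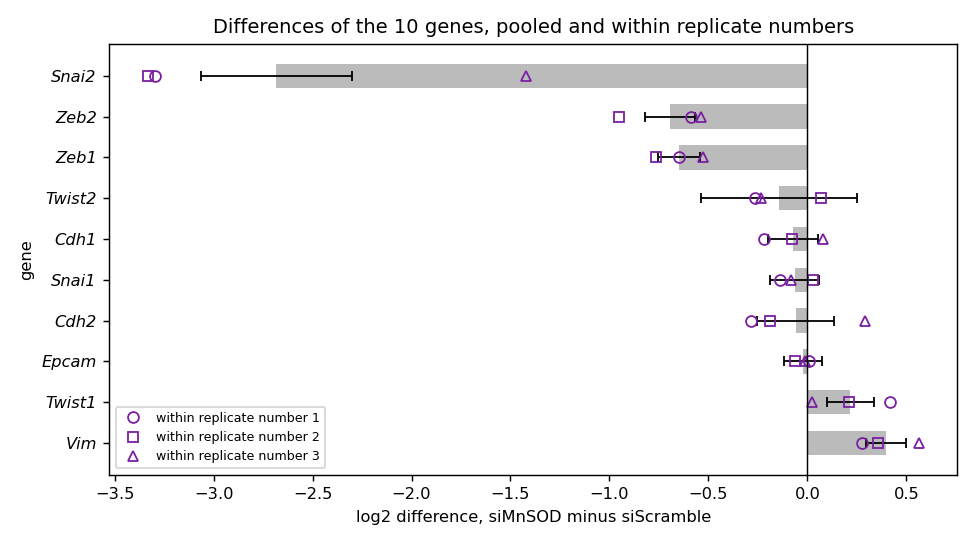
Log2 difference, siMnSOD minus siScramble (horizontal axis), of the 10 genes in order of size (vertical axis), as grey bars with the SE of the fit, with open circles, squares and triangles for the differences within replicate numbers 1, 2 and 3. Snai2 ranges from −3.33 to −1.42 within numbers, Zeb1, Zeb2 and Vim keep their sign in all 3, and Cdh1 and Cdh2 lie on either side of 0.

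The 10 genes and gene models with Gm, LOC or Rik symbols were left out of a ranking by likeness to Snai2. The 5 genes whose values over the 6 arrays were then most like those of Snai2 were Ppp1r15a, Nupr1, Pcdh9, Ddit3 and Aqp9. Likeness was the root-mean-square difference between gene-centred log2 values over the 6 arrays, which was 0.19, 0.27, 0.35, 0.35 and 0.37 in that order. Ppp1r15a encodes a phosphatase subunit of the stress response, Ddit3 the stress factor CHOP, Nupr1 a stress-induced chromatin protein, Pcdh9 a protocadherin and Aqp9 a glycerol and water channel. Ppp1r15a read 5.85, 5.79 and 6.54 in siMnSOD and 9.64, 9.41 and 8.24 in siScramble, so like Snai2 it was highest in siMnSOD and lowest in siScramble in replicate 3. The 5 genes were picked on these same values, so a pattern over the arrays shared with Snai2 follows from the choice. Pcdh9, of the wider cadherin superfamily, read 4.42, 3.97 and 4.27 in siMnSOD and 6.81, 6.70 and 5.43 in siScramble. For Vim the same measure named Ptpa, Myo19, Micos10, Maz and Hdac7, at 0.02 to 0.04, a phosphatase activator, a mitochondrial myosin, a cristae organiser, a zinc finger factor and a histone deacetylase. Genes of small difference are close to each other on this measure, so the lower values for Vim do not make its neighbours more alike in shape.

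**Figure D3:**
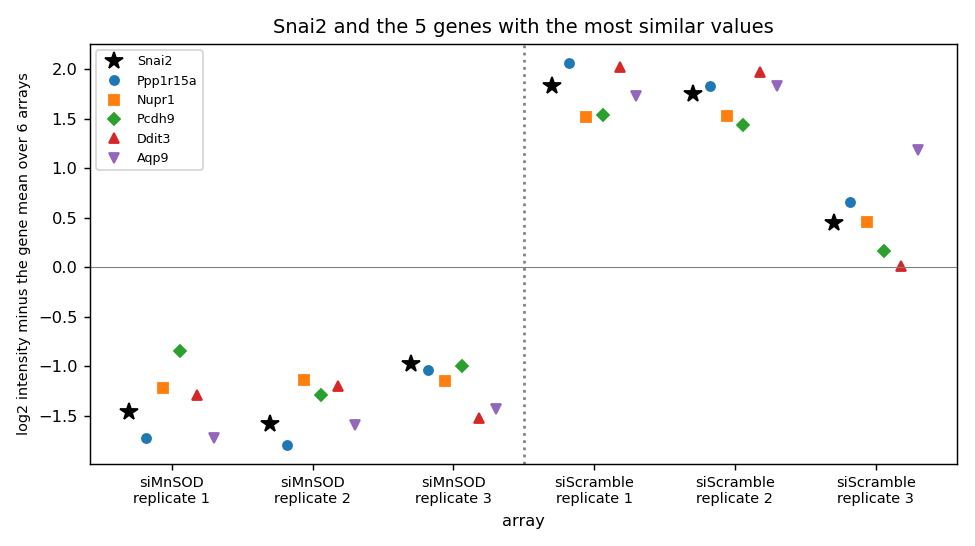
Log2 intensity minus the gene's mean over 6 arrays (vertical axis) on each array (horizontal axis, siMnSOD left, siScramble right) for Snai2 (star) and the 5 genes nearest to it. All 6 genes are below 0 on the siMnSOD arrays, and in siScramble replicate 3 each is lower than in siScramble replicates 1 and 2. The 5 genes were picked for likeness on these values, so the shared pattern follows from the choice.

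The wider circuit was followed in 186 measured genes of 11 lists, of which 4 rose and 7 fell in siMnSOD cells in limma with adjustment over the whole table, or 5.91%, against 3.75% of all genes. Their median difference was 0.02, and a fit blocked on replicate number called 13 higher and 12 lower. Of 15 other transcription factors linked to the transition 2 fell. Hmga2, an architectural chromatin protein that induces Snai1 and Twist1 in mouse mammary cells, read 9.32, 9.32 and 9.16 in siMnSOD and 10.17, 10.20 and 10.56 in siScramble (−1.04, SE 0.14, adjusted p 0.013). Sox4, another inducer of the transition, fell by 0.63 (SE 0.12, adjusted p 0.037, or 0.057 with quantile normalization). Hmga2 lost its call without siMnSOD replicate 1 or 2 or siScramble replicate 2 (highest adjusted p 0.078), and Sox4 without any array except siScramble replicate 3 (0.16). Of 20 genes that keep the epithelial state, such as the splicing regulators Esrp1 and Esrp2 and the Grhl and Ovol factors, limma called 0 in either direction (1 higher and 0 lower at an unadjusted p under 0.05). The Ets factor Elf3 had the smallest p there, at 0.41 (SE 0.11, adjusted p 0.119). Of 24 cofactors and stability regulators of Snail, Zeb and Twist proteins limma also called 0 (3 higher and 4 lower unadjusted), with the kinase gene Csnk1e nearest at −0.47 (SE 0.10, adjusted p 0.056, or 0.047 with the replicate block). The share of all genes at an unadjusted p under 0.05 is not given here, so nothing is read from such counts, above or below.

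Among the other cadherin and junction genes 4 fell and 1 rose. Cdh6, a type II cadherin, was the 1 gene called of 21 further cadherins, 11 of which lay under the background guide in both groups. It read 10.01, 9.84 and 9.90 in siMnSOD and 10.53, 10.58 and 10.61 in siScramble (−0.66, SE 0.10, adjusted p 0.02). Cdh17 and Cdh16, the intestinal and kidney cadherins, had 1.05 (SE 0.38) and 0.74 (SE 0.46) and did not pass (adjusted p 0.228 and 0.595). Cdh17 did pass in limma with replicates 1 and 2 only (1.72, adjusted p 0.00088) and without siScramble replicate 3 (1.44, adjusted p 0.026). Within replicate numbers 1, 2 and 3 Cdh17 had 1.74, 1.71 and −0.31, and Cdh16 had 0.20, 0.29 and 1.73, falling to 0.15 without siScramble replicate 3. Of 20 catenins and adherens junction partners, Nectin2, an immunoglobulin-like adhesion molecule, fell to 7.15, 7.16 and 6.94 in siMnSOD, against 8.63, 8.56 and 8.33 in siScramble (−1.43, SE 0.13, adjusted p 0.0042). The catenin genes Ctnna1, Ctnnb1 and Ctnnd1 had −0.07, 0.22 and 0.01 and overlapped between the groups. On every siMnSOD array 4 genes of this list were higher and 1 lower, beside 11.1% and 9.73% of all genes. Jup was among the higher, at 0.60 (SE 0.20, limma adjusted p 0.181). Nectin2 kept its call whichever array was left out (highest adjusted p 0.038), whereas Cdh6 lost it without siMnSOD replicate 1 or 2 or siScramble replicate 1 or 2 (0.119).

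Of 30 tight junction genes, F11r, which encodes junctional adhesion molecule A, fell by 0.60 (SE 0.11) and Pard3, a polarity scaffold gene, by 0.53 (SE 0.10), both at an adjusted p of 0.037. Neither passed with arrays centred on their medians (adjusted p 0.137 for F11r and 0.106 for Pard3), nor Pard3 with the intensity trend (0.052). Of 11 desmosome genes, Ppl, which encodes the plaque protein periplakin, rose to 8.95, 9.05 and 8.99 in siMnSOD, against 8.04, 7.95 and 7.96 in siScramble (1.01, SE 0.10, adjusted p 0.0048). Of 6 partners and relatives of Epcam, the hyaluronan receptor gene Cd44, often used as a mesenchymal and stem cell marker, fell by 0.71 (SE 0.10, adjusted p 0.015, or 0.056 with centred arrays). Ppl passed whichever array was left out (highest adjusted p 0.049). Cd44 did not pass without siMnSOD replicate 1 or 2 or siScramble replicate 1 or 2 (0.095), nor F11r and Pard3 without any array except siScramble replicate 3 (0.168 and 0.174). The list medians were 0.04 for the cadherins, 0.04 for the adherens junction, −0.03 for the tight junction, −0.02 for the desmosome and 0.01 for the Epcam partners, beside 0.01 over all genes.

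Of 7 simple epithelial keratin genes limma called 0 (2 higher and 0 lower at an unadjusted p under 0.05). Their median difference was 0.59 and all 7 values were positive, but siScramble replicate 3 set the sign for Krt18 and Krt80. Within replicate numbers 1, 2 and 3 Krt18 had −0.06, −0.02 and 0.46, and Krt80 had −0.13, −0.09 and 1.43. Krt20, at 0.65 (SE 0.30), had 1.03, 1.27 and −0.35 within these numbers, and its groups overlapped. Without siScramble replicate 3 Krt18 had −0.12 and Krt80 −0.04. Krt23 lay under the background guide on all 6 arrays, so its 0.06 shows no direction. Krt8, the keratin gene of hepatocytes with the smallest p, read 13.12, 13.09 and 12.92 in siMnSOD and 12.67, 12.58 and 12.10 in siScramble (0.59, SE 0.17, adjusted p 0.124, or 0.043 with the replicate block). Krt7 read 9.92, 10.00 and 9.56 in siMnSOD and 9.40, 9.33 and 7.30 in siScramble, with siScramble replicate 3 far below the others, and its difference of 1.15 (SE 0.54) became 0.47 without that array. The summed intensity of the 5 biliary and progenitor markers, which include Krt7 and Krt19, ranged over 3900 to 4187 in siMnSOD and 1911 to 3296 in siScramble, and its part in the keratin values was not tested. Krt19 and Krt7 make up most of that sum, and the list did not move one way. Cftr and Prom1 lay under the guide on all 6 arrays, and Sox9, a factor of bile duct and progenitor cells, fell to 7.93, 7.90 and 8.10 in siMnSOD, against 8.78, 8.64 and 9.08 in siScramble (−0.86, SE 0.14, limma adjusted p 0.027, but up to 0.146 without replicate 1 or 2 of either group). Of 13 other filament and lamin genes, the nuclear lamina genes Lmnb1 (1.26, SE 0.23, adjusted p 0.035, or 0.080 with centred arrays) and Lmnb2 (0.97, SE 0.15, adjusted p 0.021) rose. Of 19 mesenchymal markers, Sparc, a secreted matrix glycoprotein gene, rose by 0.84 (SE 0.16, adjusted p 0.044, or 0.062 with quantile normalization), and the list median was 0.02. At an unadjusted p under 0.05 the list held 1 higher and 3 lower genes. The lower ones were Tnc (−0.80), Cald1 (−0.44) and Cnn1 (−0.31), which encode tenascin C, caldesmon and calponin. Cald1 lay above the background guide on all 6 arrays, but Tnc on 4 and Cnn1 on 2 only, so the size of their differences is uncertain. Cald1 was lower on every siMnSOD array, while Tnc and Cnn1 were not, and the largest difference, 1.03 for S100a4, did not pass (adjusted p 0.378). With the replicate block limma called 2 genes of this list higher and 1 lower. Sparc lost its call without siMnSOD replicate 1 or 2 or siScramble replicate 1 or 2 (highest adjusted p 0.171), and Lmnb1 and Lmnb2 without any array except siScramble replicate 3 (0.173 and 0.097).

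**Figure D4:**
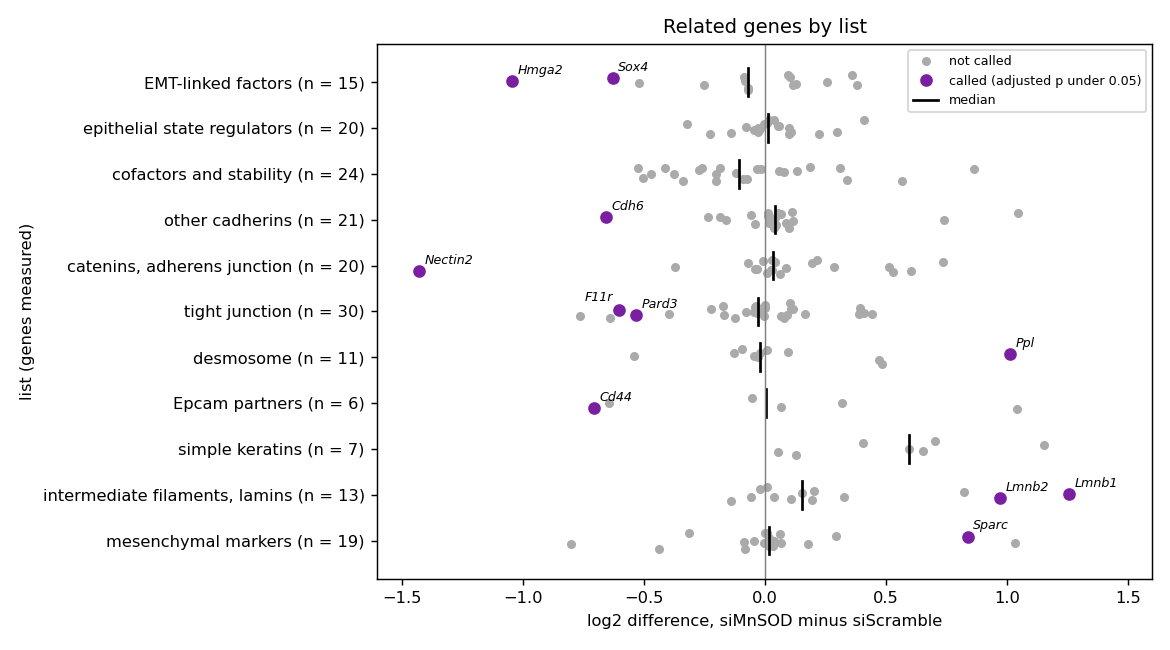
Log2 difference, siMnSOD minus siScramble (horizontal axis), of each measured gene in 11 lists of related genes (vertical axis), with called genes in purple and named, other genes in grey and the list median as a black bar. The medians lie between −0.11 and 0.15 except for the simple keratins at 0.59, where Krt18 and Krt80 lie above 0 through siScramble replicate 3 and Krt23 lies under the background guide.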

How the data were processed

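RNA of 3 siMnSOD and 3 siScramble samples was measured on 1 array each. The authors deposited 1 normalized linear intensity per probe set and array. RMA is the method named per the submitters' processing notes, and MAS5 scaling per the labels' design text. The version and the build were not given in the sources used here. Of 35557 probe sets 21789 had 1 gene symbol, updated through Entrez identifiers (21698 matched) in a RefSeq table of GRCm38.p6, and 1621 had several. The brightest probe set stood for a gene, which left 21559 tested rows, 19938 of them genes. The log2 values entered limma 3.58.1 (R 4.3.3, lmFit and eBayes) with a group term alone, and Benjamini-Hochberg adjustment ran over all rows, with calls made under 0.05. No filter on low values was used. Errors are SDs over 3 arrays or SEs of the fit, and precision is limited by having 3 arrays a group.

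The 10 genes, the lists and the tests were chosen with earlier results of these data known. Named in the text are the 10 genes, Sod2, in each list up to 4 called genes by smallest p or else the gene with the smallest p, and the 5 genes nearest to the member of largest rise and of largest fall. The search for nearest genes left out the 10 genes and gene models with Gm, LOC or Rik symbols. Other genes named (Cdh16, Cdh17, Ctnna1, Ctnnb1, Ctnnd1, Jup, Krt7, Krt18, Krt20, Krt23, Krt80, Tnc, Cald1, Cnn1, S100a4, the microRNA-200 precursors and cell type markers) were chosen after their values were seen, or, for the precursors, looked up late. Of 194 listed genes 186 had a probe set with 1 symbol. Deviations of same-numbered arrays from their group means correlated at 0.298, 0.286 and 0.559 for numbers 1, 2 and 3, while the crossed pairs of siMnSOD 1 with siScramble 2 and siMnSOD 2 with siScramble 1 reached 0.466 and 0.407. Number 3 thus carries most of the pairing, which comes from the data, since no label explains the numbers. The fit reported has no block, and the block on number was an alternative. Alternatives were a replicate block, other scalings, probe set rules, a filter, a pseudocount, an intensity trend and leaving out arrays.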

Additional observations from a re-analysis of the deposited data

How the results depend on the processing

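Snai2, Zeb1, Zeb2 and Vim kept their direction in all 14 alternatives. It could not change when arrays were left out or a pseudocount was added, because the groups of these genes did not overlap. The replicate block, probe set rule, filter and intensity trend leave a member's difference as it was. Only the other scalings could thus have changed the direction. Of 139 values of the 10 genes under alternatives 136 moved by less than 1 SD between replicates. The 3 others were Snai2 and Vim with replicates 1 and 2 only (−3.31 and 0.32) and Zeb2 with a pseudocount of 16 (−0.47). The 136 include the values under the replicate block, probe set rule, filter and intensity trend, which could not move, so this count overstates the stability. Called members numbered 3 lower and 0 higher, with 1 higher (Vim) with the pseudocount of 16 and with replicates 1 and 2 only, and 0 to 3 lower when 1 array was left out. Over all genes 432 higher and 316 lower calls became 801 and 623 with the replicate block, 284 and 205 with arrays centred on their medians, 2343 and 1932 with replicates 1 and 2 only, and 52 to 1119 and 25 to 1119 when 1 array was left out. Of the 186 related genes 4 higher and 7 lower calls became 13 and 12 with the replicate block and 30 and 20 with replicates 1 and 2 only. The lower calls became 4 with centred arrays and 11 with the pseudocount, and leaving out 1 array gave 1 to 16 higher and 1 to 13 lower. Sod2 had −1.61 with centred arrays (adjusted p 0.074) and −1.88 to −1.27 when 1 array was left out. The replicate block changed no call of the 10 genes or Sod2, and of the related genes named by smallest p those of Csnk1e and Krt8 alone. Calls in the mesenchymal marker list went from 1 higher and 0 lower to 2 higher and 1 lower with that block. The cause of these changes was not tested. Under the background guide, as for Epcam, differences could not be seen.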
